A study of Mus musculus with 6 samples.

Results

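Midkine (Mdk), pleiotrophin (Ptn), the fibroblast growth factors Fgf2, Fgf7, Fgf10 and Fgf18 and hepatocyte growth factor (Hgf) are secreted signals of mesenchymal cells, and Fgfr1, Fgfr2 and Met are receptors for the FGFs and for HGF. The array carried 23 probes paired with 1 of these 10 genes, 16 for the 7 ligands and 7 for the 3 receptors, of 45281 probes and 19057 genes with a probe in all. A further probe, paired with Fgfr1 and another symbol, was left out. The genes were chosen for their roles and with their difference between the 2 genotypes on these same arrays known, so their values are given as a description with no test.

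RNA from mouse embryonic fibroblasts (MEFs) was hybridized to Illumina single-colour BeadChips, 3 arrays for Dnmt1-/- MEFs of genotype Trp53-/- Dnmt1-/- and 3 for Dnmt1+/+ MEFs of genotype Trp53-/- Dnmt1+/+. Dnmt1 encodes the maintenance DNA methyltransferase, and the allele on both chromosomes of the Dnmt1-/- cells is described by the authors as hypomorphic. Cells of both genotypes lack Trp53, and their background strain is given as unknown. No source names more than 1 line per genotype, and an effect of the genotype and one of the line cannot be told apart. Whether replicates came from different cultures is not stated, and the p-values below cover only the spread among these 6 samples, possibly a technical one.

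Midkine and pleiotrophin form a small family of heparin-binding cytokines that act on receptor phosphatases, syndecans and other surface proteins. FGFs bind FGF receptor tyrosine kinases together with heparan sulphate, and the signal runs through RAS and ERK to transcription factors of the Etv family and to feedback inhibitors. HGF is typically made by mesenchymal cells and acts on the tyrosine kinase MET, known best from epithelia, while FGF7 and FGF10 are mesenchymal ligands of the epithelial isoform of FGFR2.

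Mean raw signal per array was 396.6, 258.6 and 217.1 for Dnmt1-/- replicates 1, 2 and 3, and 357.1, 356.3 and 325.5 for the Dnmt1+/+ replicates, with 14699 to 16499 probes above background (detection p under 0.01). Arrays correlated at 0.956 to 0.986 within Dnmt1-/-, at 0.972 to 0.987 within Dnmt1+/+ and at 0.876 to 0.938 between genotypes. Dnmt1 itself had raw signals of 514.3, 176.5 and 176.7 in Dnmt1-/- MEFs and 1124.9, 1076.0 and 794.9 in Dnmt1+/+ MEFs, and was 4.31-fold lower on the normalized scale (limma adjusted p = 0.0019), though its probe may lie outside the altered part of the gene. Of 12 fibroblast markers, 8 were above background on all 6 arrays and Postn on none, and their summed normalized signal was 23000 to 28600 in Dnmt1-/- MEFs and 20800 to 25700 in Dnmt1+/+ MEFs. Vim and P4hb made up most of this sum, and some other markers varied more between arrays. Dcn had raw signals of 1159.3, 128.2 and 127.3 in Dnmt1-/- MEFs and 331.1, 129.8 and 390.1 in Dnmt1+/+ MEFs. Pdgfra had 1563.8, 303.9 and 299.2 in Dnmt1-/- MEFs and 451.0, 415.1 and 387.4 in Dnmt1+/+ MEFs. Thy1 was lower in Dnmt1-/- MEFs (at least 2.11-fold in this processing, limma adjusted p = 0.0032, log2 difference -1.75 here and -0.59 in the scaling, of the other background corrections and normalizations tried, that made it smallest) and S100a4 higher (2.98-fold, limma adjusted p = 0.03, and 0.086 without Dnmt1+/+ replicate 1). Epithelial markers (6 of 8, Epcam and Cdh1 among them), endothelial markers (5 of 6, Pecam1 and Cdh5 among them), blood markers (5 of 7, Ptprc among them) and neural markers (4 of 6, Sox2 among them) were above background on 0 arrays. Their summed signals in Dnmt1-/- and then Dnmt1+/+ MEFs were 172 to 192 and 181 to 194 for epithelial, 128 to 129 and 132 to 137 for endothelial, 158 to 197 and 145 to 154 for blood, and 318 to 551 and 497 to 655 for neural markers. Normalization added an offset of 16 to each signal, and this floor makes up much of the epithelial, endothelial and blood sums. Among the markers of these 4 types, Krt19 (at least 1.34-fold, limma adjusted p = 0.0085, and 0.052 without Dnmt1+/+ replicate 2) and the neuronal Map2 (at least 7.09-fold in this processing, limma adjusted p = 0.00026, log2 difference -2.99 here and -1.43 in the scaling that made it smallest) were lower in Dnmt1-/- MEFs, and Cd53 was higher (at least 1.3-fold, limma adjusted p = 0.018, and 0.072 without Dnmt1+/+ replicate 2). With median scaling over all probes S100a4, Krt19 and Cd53 did not pass, nor did Krt19 and Cd53 with no background correction or Krt19 with median scaling. The probes of Thy1, Krt19 and Map2 would not have entered the test without their Dnmt1+/+ arrays, nor that of Cd53 without its Dnmt1-/- arrays. The part of array brightness and of these markers in the results below was not tested, and in bulk RNA fewer cells of a type and less RNA per cell cannot be told apart.

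The sites that DNMT1 methylates are CpG dinucleotides, so the RefSeq promoter windows of these genes (build GRCm38.p6, 250 bases before to 50 bases after the start) are described by their CpG count. Windows were given for 8 of the 10 genes, and the motif CG, which reads the same on both strands, is in capitals. The 4 genes with a window and a probe above background on at least 3 arrays were Ptn (chr6:36810130-36810429, minus strand), Fgf7 (chr2:126034408-126034707, plus strand), Fgfr2 (chr7:130266759-130267058, minus strand) and Met (chr6:17463707-17464006, plus strand).
Ptn: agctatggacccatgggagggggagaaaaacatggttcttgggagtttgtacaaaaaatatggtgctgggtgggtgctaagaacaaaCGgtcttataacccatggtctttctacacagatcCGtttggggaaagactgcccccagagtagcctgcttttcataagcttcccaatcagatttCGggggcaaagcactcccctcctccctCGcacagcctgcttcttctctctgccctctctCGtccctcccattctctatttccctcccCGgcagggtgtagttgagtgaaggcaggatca
Fgf7: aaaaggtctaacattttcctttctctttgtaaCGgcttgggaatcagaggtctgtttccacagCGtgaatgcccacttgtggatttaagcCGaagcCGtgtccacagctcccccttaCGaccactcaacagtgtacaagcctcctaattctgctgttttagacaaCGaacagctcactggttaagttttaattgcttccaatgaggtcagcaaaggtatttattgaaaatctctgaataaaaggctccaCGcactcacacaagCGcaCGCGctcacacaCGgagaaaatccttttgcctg
Fgfr2: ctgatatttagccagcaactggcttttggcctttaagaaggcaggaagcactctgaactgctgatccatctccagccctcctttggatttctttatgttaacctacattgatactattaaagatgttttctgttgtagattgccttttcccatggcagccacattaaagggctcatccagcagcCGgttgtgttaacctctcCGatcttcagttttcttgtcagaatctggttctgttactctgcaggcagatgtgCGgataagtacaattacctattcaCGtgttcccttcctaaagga
Met: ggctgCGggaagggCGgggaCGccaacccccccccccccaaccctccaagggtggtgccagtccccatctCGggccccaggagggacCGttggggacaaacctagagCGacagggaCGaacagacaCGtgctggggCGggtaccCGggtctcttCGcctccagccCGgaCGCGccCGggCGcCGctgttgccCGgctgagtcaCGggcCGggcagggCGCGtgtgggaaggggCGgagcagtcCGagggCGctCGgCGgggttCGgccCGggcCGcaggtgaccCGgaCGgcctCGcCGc
The Ptn window held 6 CpGs, Fgf7 11, Fgfr2 4 and Met 34. Of all 32851 windows of this length, 56.4% held at least as many as Ptn, 41.4% as Fgf7, 68.6% as Fgfr2 and 7.73% as Met, and the median window held 7. Of the other genes, Fgf18 held 47 (1.44% of windows held as many), Fgf2 24 (20.0%), Fgf10 10 (43.5%), and Hgf 7 (52.1%) and 6 (56.4%) in its 2 windows. A CG is a description of the sequence, not of its methylation, which was not analysed here.

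Of the 23 probes, 12 were above background on 0 of the 6 arrays, 3 on 1 or 2 arrays, and 8 on at least 3, the filter for the fit. These 8 probes, 4 for ligands and 4 for receptors, covered 6 genes, namely Mdk, Ptn, Fgf7, Fgfr1, Fgfr2 and Met. Of the ligands, Fgf2 (1 probe), Fgf18 (2 probes) and Hgf (3 probes) were above background on 0 arrays, with raw signals of 86.9 to 118.1 in Dnmt1-/- MEFs and 96.4 to 109.1 in Dnmt1+/+ MEFs. For these 3 genes no difference was detectable at this signal.

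**Figure D1:**
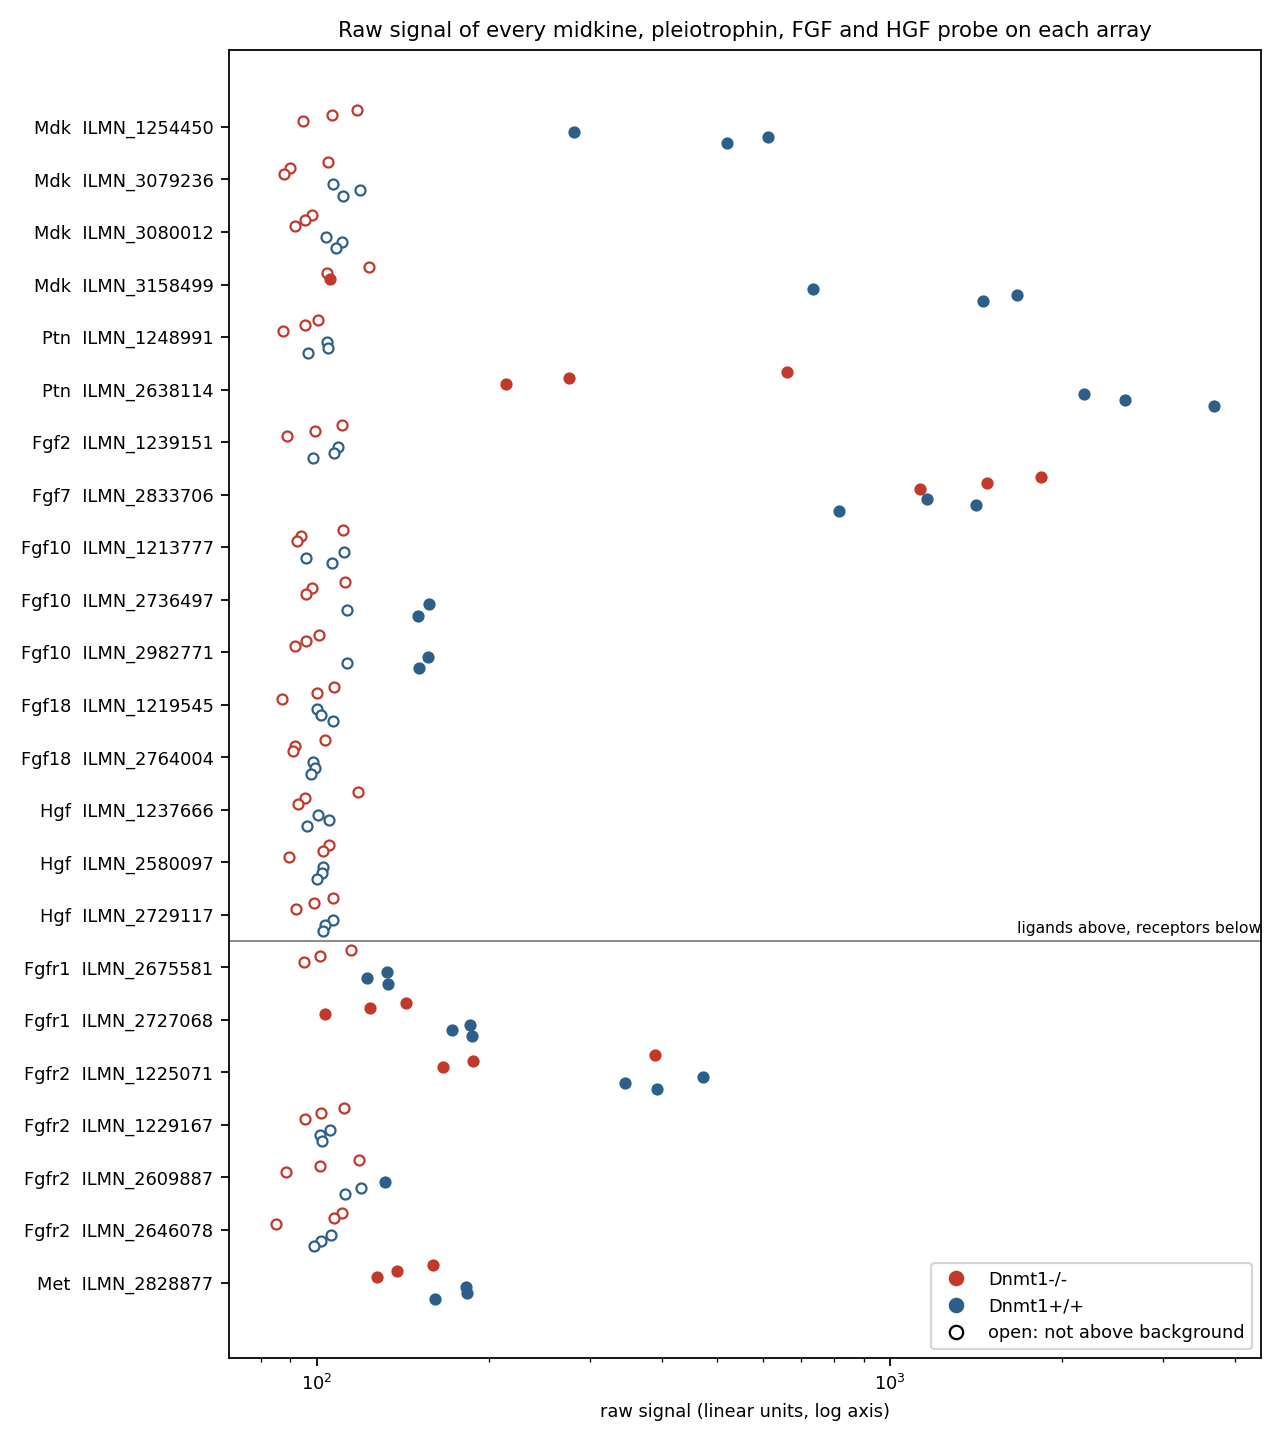
Raw signal (linear units on a log axis) of each of the 23 probes on each of the 6 arrays, with ligands above the line and receptors below, Dnmt1-/- arrays drawn above Dnmt1+/+ arrays within a probe. Filled points were above background. Mdk (ILMN_3158499, ILMN_1254450) and Ptn (ILMN_2638114) show a clear gap between genotypes, Fgf7 overlaps, and the Fgf2, Fgf18 and Hgf probes sit at background on all 6 arrays.

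Midkine, a heparin-binding growth factor of embryonic tissues, had the largest difference of these genes. Probe ILMN_3158499 had raw signals of 123.3, 104.4 and 105.4 in Dnmt1-/- MEFs, against 734.2, 1669.2 and 1455.5 in Dnmt1+/+ MEFs. Its normalized log2 signal averaged 4.92 ± 0.37 in Dnmt1-/- MEFs and 9.98 ± 0.72 in Dnmt1+/+ MEFs (SD, n = 3 each), a difference of -5.06 ± 0.36 (SE), and it was above background on 1 Dnmt1-/- array, replicate 3. Where a probe was not above background on every array of its lower group, that group's level was set, array by array, to the lowest signal above background if the probe's own was lower still, and the fold is given as "at least", which holds for this processing alone. For this probe it was at least 30.3-fold lower, and its difference was -3.20 with no background correction and -3.12 with the authors' processed values. The second Mdk probe, ILMN_1254450, had 117.5, 106.2 and 94.7 in Dnmt1-/- MEFs, none above background, against 281.4, 614.0 and 519.0 in Dnmt1+/+ MEFs, at least 10.5-fold lower, with differences of -1.90 with no background correction and -1.92 with the processed values. The groups were apart on both probes, and Dnmt1+/+ replicate 1 was the lowest of its group on both. Probes ILMN_3079236 and ILMN_3080012 for Mdk were above background on 0 arrays.

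Pleiotrophin, the other member of the midkine family and a growth factor for neurites and bone, was lower in Dnmt1-/- MEFs but stayed above background there. Probe ILMN_2638114 had raw signals of 662.3, 275.7 and 213.8 in Dnmt1-/- MEFs, against 2179.8, 2573.5 and 3676.9 in Dnmt1+/+ MEFs. The highest Dnmt1-/- array was replicate 1, which also had the highest mean raw signal of the 6 arrays, and it lay below every Dnmt1+/+ array. After normalization Ptn averaged 8.21 ± 0.36 in Dnmt1-/- MEFs and 11.20 ± 0.53 in Dnmt1+/+ MEFs (SD, n = 3 each), a difference of -2.99 ± 0.29 (SE) or 7.95-fold lower. The other Ptn probe, ILMN_1248991, was above background on 0 arrays.

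Fgf7, keratinocyte growth factor, was the 1 probe of the 8 that was higher in Dnmt1-/- MEFs. ILMN_2833706 had raw signals of 1835.3, 1480.5 and 1130.1 in Dnmt1-/- MEFs, against 1161.7, 1416.4 and 815.7 in Dnmt1+/+ MEFs, so that the raw groups overlapped. On the normalized log2 scale the arrays had 10.32, 10.92 and 10.86 in Dnmt1-/- MEFs and 9.84, 10.16 and 9.46 in Dnmt1+/+ MEFs, and the groups were apart. The difference was 0.88 ± 0.24 (SE), or 1.84-fold higher, and it ranged between 0.46 and 1.07 over the alternative settings. Across the array, 16.6% of the 15795 probes in the fit had every Dnmt1-/- array above every Dnmt1+/+ array.

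Fgf10, a ligand of limb and lung mesenchyme, was seen in Dnmt1+/+ MEFs on some arrays and not in Dnmt1-/- MEFs. ILMN_2736497 had 112.1, 98.1 and 95.7 in Dnmt1-/- MEFs, against 157.3, 113.1 and 150.1 in Dnmt1+/+ MEFs, and ILMN_2982771 had 101.0, 95.8 and 91.8 in Dnmt1-/- MEFs, against 156.6, 113.0 and 150.8 in Dnmt1+/+ MEFs. Both probes were above background on Dnmt1+/+ replicates 1 and 3 and on 0 Dnmt1-/- arrays, and so did not enter the fit. Dnmt1+/+ replicate 2 was the lowest of its group on both and lay just above the highest Dnmt1-/- array on ILMN_2736497. The remaining Fgf10 probe, ILMN_1213777, was above background on 0 arrays. The median difference over the 3 ligand genes in the fit, themselves chosen on this contrast, was -2.99, beside -0.05 over all 8716 genes tested. It was -0.04 over all 7 ligands with no filter, and -1.06 over Ptn and Fgf7, the ligands above background on all 6 arrays.

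The receptors differed by less than midkine and pleiotrophin. Fgfr1, the FGF receptor most typical of mesenchyme, had raw signals of 143.0, 124.0 and 103.3 in Dnmt1-/- MEFs on ILMN_2727068, against 185.0, 172.2 and 186.4 in Dnmt1+/+ MEFs. The groups were apart, with a normalized difference of -1.07 ± 0.21 (SE), or 2.1-fold lower. On ILMN_2675581 the Dnmt1-/- arrays had 114.6, 101.4 and 95.0, none above background, against 132.9, 122.2 and 133.4 on the Dnmt1+/+ arrays, which made Fgfr1 at least 1.3-fold lower. These signals lie close to background, and with no background correction the differences were -0.43 and -0.25.

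Fgfr2, whose isoforms divide between epithelium and mesenchyme, had 389.8, 187.8 and 165.9 in Dnmt1-/- MEFs on ILMN_1225071, against 472.5, 344.5 and 393.3 in Dnmt1+/+ MEFs. Raw signals overlapped through Dnmt1-/- replicate 1, while normalized signals, 7.63, 7.23 and 7.25 in Dnmt1-/- MEFs and 8.44, 7.84 and 8.23 in Dnmt1+/+ MEFs, did not. The difference was -0.80 ± 0.21 (SE), or 1.74-fold lower. Another Fgfr2 probe, ILMN_2609887, was above background on 1 Dnmt1+/+ array, and ILMN_1229167 and ILMN_2646078 on 0 arrays.

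Met, the HGF receptor, showed the smallest difference. ILMN_2828877 had 159.6, 138.0 and 127.7 in Dnmt1-/- MEFs, against 182.4, 183.2 and 161.0 in Dnmt1+/+ MEFs, and was above background on all 6 arrays although Hgf was not above background on any. The normalized signals overlapped, at 5.58, 6.26 and 6.36 in Dnmt1-/- MEFs and 6.53, 6.44 and 6.18 in Dnmt1+/+ MEFs. The difference of -0.32 ± 0.23 (SE) was -0.07 without Dnmt1-/- replicate 1, so this array carried most of it. The median difference over the 3 receptor genes was -0.80.

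Taking all 8 probes in the fit, 7 were lower in Dnmt1-/- MEFs, where 57.5% of all probes tested had a difference below 0. Of these 7, 6 had every Dnmt1-/- array below every Dnmt1+/+ array, which held for 21.6% of all probes tested. By limma 8.48% of all probes tested were higher and 7.69% lower at an adjusted p under 0.05, a call not made for these 8. ILMN_1254450, ILMN_2675581 and ILMN_3158499, the last above background on 1 Dnmt1-/- array, would not have entered the fit without their Dnmt1+/+ arrays. Since the genes were also chosen on this contrast, these counts describe the selection. None of the 127 differences recomputed for these probes under other settings changed sign. Those under the other filters and the replicate block could not move from the main fit. As the probes were chosen on this contrast, the stable sign is no separate support for it.

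**Figure D2:**
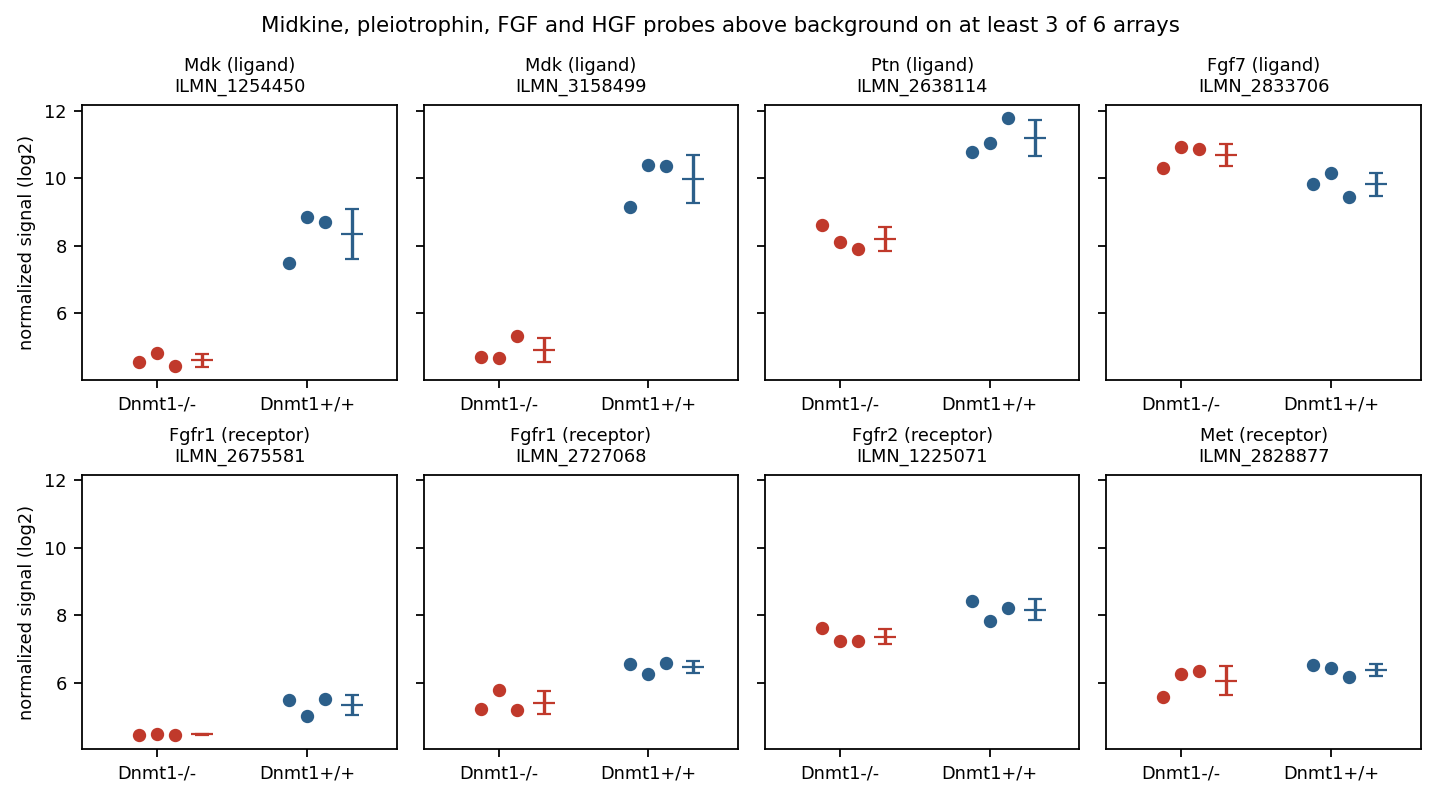
Normalized log2 signal on each array for the 8 probes above background on at least 3 of 6 arrays, Dnmt1-/- at left and Dnmt1+/+ at right in each panel, with the mean and SD of 3 arrays beside the points. Ligands are in the upper panels and receptors in the lower. The groups are apart for every probe but that of Met, and Fgf7 is the 1 probe that is higher in Dnmt1-/- MEFs.

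The genes around these signals were then compared, using 8 lists of pathway genes that hold none of the 10. Of 115 listed genes 106 had a probe and 57 were tested, of which 4 (7.02%) rose and 11 (19.3%) fell in Dnmt1-/- MEFs (limma, adjusted p under 0.05). Over all 8716 genes tested, 9.61% rose and 7.82% fell, and the median difference was -0.20 for the pathway genes and -0.05 for all genes. The difference between these shares was not tested. The remaining 42 pathway genes did not pass the test. Of the 11 that fell, the probes of Flrt3, Etv1, Etv5, Sulf1, Sulf2 and Gpc6 would not have entered the test without their Dnmt1+/+ arrays. The probe of Hs3st1, which rose, would not have entered it without its Dnmt1-/- arrays. Over probes above background on all 6 arrays, 3 pathway genes rose and 5 fell, where of 7405 genes in all 476 rose and 399 fell. How many of the 57 pathway genes remained with this filter was not counted, so the 3 and 5 cannot be read as shares.

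**Figure D3:**
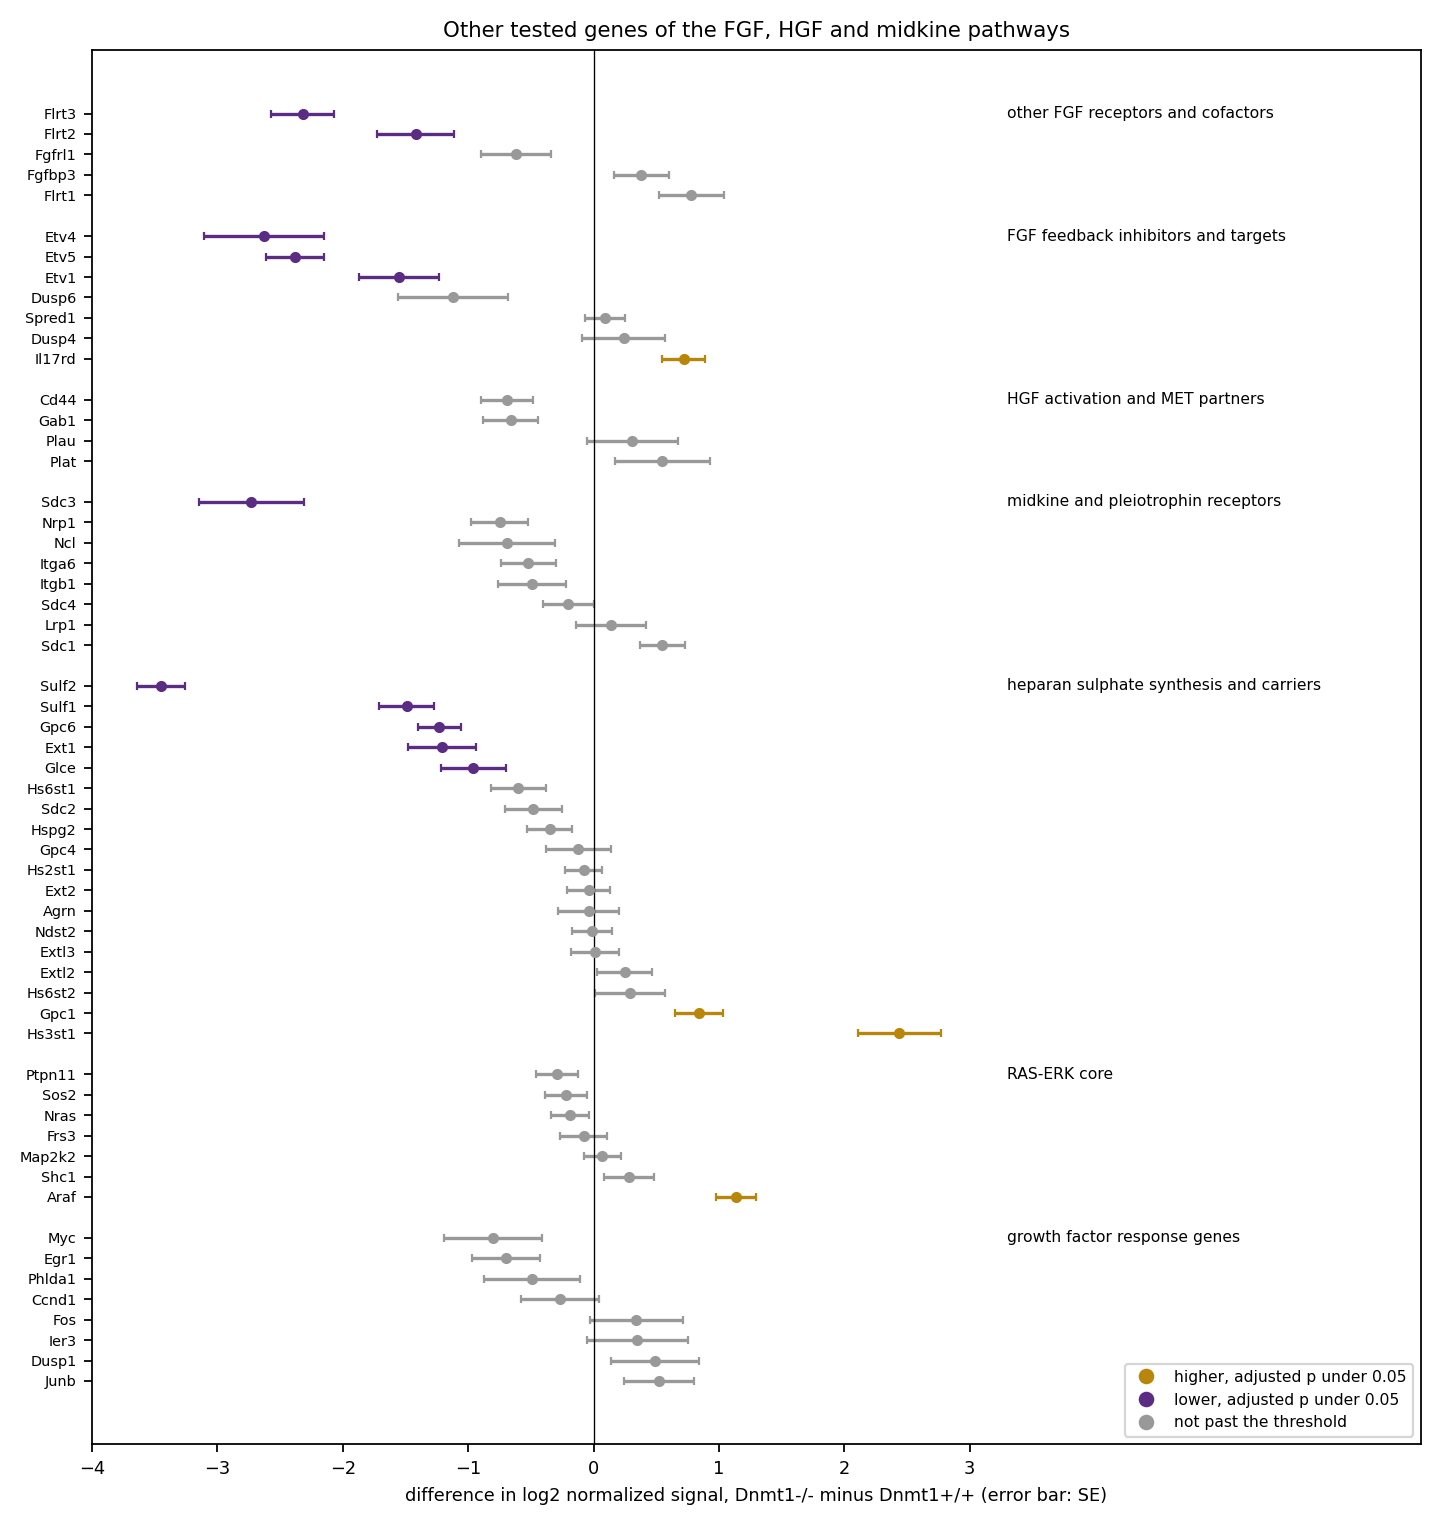
Difference in normalized log2 signal, Dnmt1-/- minus Dnmt1+/+, with its SE, for the 57 tested pathway genes in their lists. The 11 genes that fell include Sulf2, Sdc3, Etv4, Etv5 and Flrt3, and the 4 that rose are Hs3st1, Araf, Gpc1 and Il17rd.

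All 18 other FGF ligands were above background on 0 arrays. Among other FGF receptors and cofactors, 5 of 10 were tested, and 2 fell, the FGF receptor binding transmembrane proteins Flrt3 and Flrt2. Flrt3 had raw signals of 119.8, 113.3 and 94.1 in Dnmt1-/- MEFs, against 253.1, 221.4 and 227.3 in Dnmt1+/+ MEFs, at least 4.15-fold lower (limma adjusted p = 0.00056), with a log2 difference of -2.32 here and -0.96 in the scaling that made it smallest, and was above background on 1 Dnmt1-/- array. Flrt2 had 169.6, 131.0 and 125.3 in Dnmt1-/- MEFs, against 394.2, 259.7 and 210.9 in Dnmt1+/+ MEFs, 2.67-fold lower (limma adjusted p = 0.019, and 0.055 without Dnmt1+/+ replicate 2). Its log2 difference of -1.42 was -0.75 in the scaling that made it smallest. The groups were apart for both genes. Fgfrl1, an FGF receptor that lacks a kinase domain (-0.62, limma adjusted p = 0.16), Flrt1 (0.78, adjusted p = 0.074) and the FGF carrier Fgfbp3 (0.38, adjusted p = 0.27) did not pass, and the list's median was -0.62.

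Among FGF feedback inhibitors and targets, 7 of 12 genes with a probe were tested, 3 fell, 1 rose and 3 did not pass, with a median of -1.12. The 3 that fell were the PEA3-family transcription factors Etv4, Etv5 and Etv1, which are induced by FGF signalling in many tissues. Etv4 had 150.0, 213.4 and 155.0 in Dnmt1-/- MEFs, against 895.4, 824.2 and 665.5 in Dnmt1+/+ MEFs, a difference of -2.63 ± 0.48 (SE) or 6.19-fold lower (limma adjusted p = 0.009). This difference was -1.75 in the scaling that made it smallest. Etv5 had 114.8, 112.1 and 95.4 in Dnmt1-/- MEFs, with 1 array above background, against 251.0, 237.7 and 218.8 in Dnmt1+/+ MEFs, at least 4.28-fold lower (limma adjusted p = 0.00034), its log2 difference of -2.38 being -0.98 in the scaling that made it smallest. For both genes every Dnmt1-/- array was below every Dnmt1+/+ array. Etv1 was above background on 0 Dnmt1-/- arrays and on all 3 Dnmt1+/+ arrays and was at least 2.0-fold lower (limma adjusted p = 0.015, and 0.064 without Dnmt1-/- replicate 3), its log2 difference of -1.55 being -0.52 in the scaling that made it smallest. Il17rd, a membrane inhibitor of FGF signalling also called Sef, rose 1.64-fold (limma adjusted p = 0.024, and 0.10 without Dnmt1+/+ replicate 2), on 1 of its 2 tested probes. The genes that did not pass, named after their values were seen, were Dusp6, Dusp4 and Spred1. The ERK phosphatase Dusp6, a further FGF target, had 502.6, 864.7 and 493.7 in Dnmt1-/- MEFs and 1619.3, 1711.9 and 1410.7 in Dnmt1+/+ MEFs. Its groups did not overlap, but its difference was -1.12 ± 0.44 (SE, limma adjusted p = 0.12). Dusp4 differed by 0.24 (limma adjusted p = 0.65) and Spred1 by 0.09 (limma adjusted p = 0.72).

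Heparan sulphate is the co-receptor of FGFs and binds midkine, pleiotrophin and HGF. Of its 19 synthesis and carrier genes with a probe 18 were tested, and 5 fell, 2 rose and 11 did not pass, with a median of -0.10. Of the genes that fell, the fitted differences were largest for Sulf2 and Sulf1, extracellular enzymes that remove sulphate from heparan sulphate, and the glypican Gpc6, though Sulf1 and Gpc6 were at or near background in Dnmt1-/- MEFs. Sulf2 had 121.9, 100.3 and 98.5 in Dnmt1-/- MEFs, none above background, against 370.6, 340.3 and 428.8 in Dnmt1+/+ MEFs, at least 8.62-fold lower (limma adjusted p = 2e-05), with a log2 difference of -3.45 that came to -1.66 in the scaling that made it smallest. Sulf1 was at least 1.89-fold lower (limma adjusted p = 0.0034) and above background on 0 Dnmt1-/- arrays, and Gpc6 was at least 1.87-fold lower (limma adjusted p = 0.0023) and above background on 1, their log2 differences of -1.49 and -1.23 being -0.48 and -0.39 in the scaling that made them smallest. The other genes that fell, named after their values were seen, were Ext1, a polymerase of the chain, and Glce, an epimerase that modifies it, both above background on all 6 arrays. Ext1 was 2.32-fold lower (limma adjusted p = 0.02, and 0.071 without Dnmt1+/+ replicate 1), a larger fold than the bounds of Sulf1 and Gpc6, and its log2 difference lay between -1.63 and -1.04 over the scalings. Glce was 1.95-fold lower (limma adjusted p = 0.038, and 0.11 without Dnmt1+/+ replicate 1). In the other direction, Hs3st1, which adds sulphate to the chains, had 239.4, 160.1 and 202.2 in Dnmt1-/- MEFs, against 106.0, 108.4 and 119.4 in Dnmt1+/+ MEFs, with 1 Dnmt1+/+ array above background, at least 4.17-fold higher (limma adjusted p = 0.002), with a log2 difference of 2.44 here and 1.00 in the scaling that made it smallest. Gpc1, a glypican that carries heparan sulphate at the cell surface, rose 1.79-fold (limma adjusted p = 0.02, and 0.082 without Dnmt1+/+ replicate 2).

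**Figure D4:**
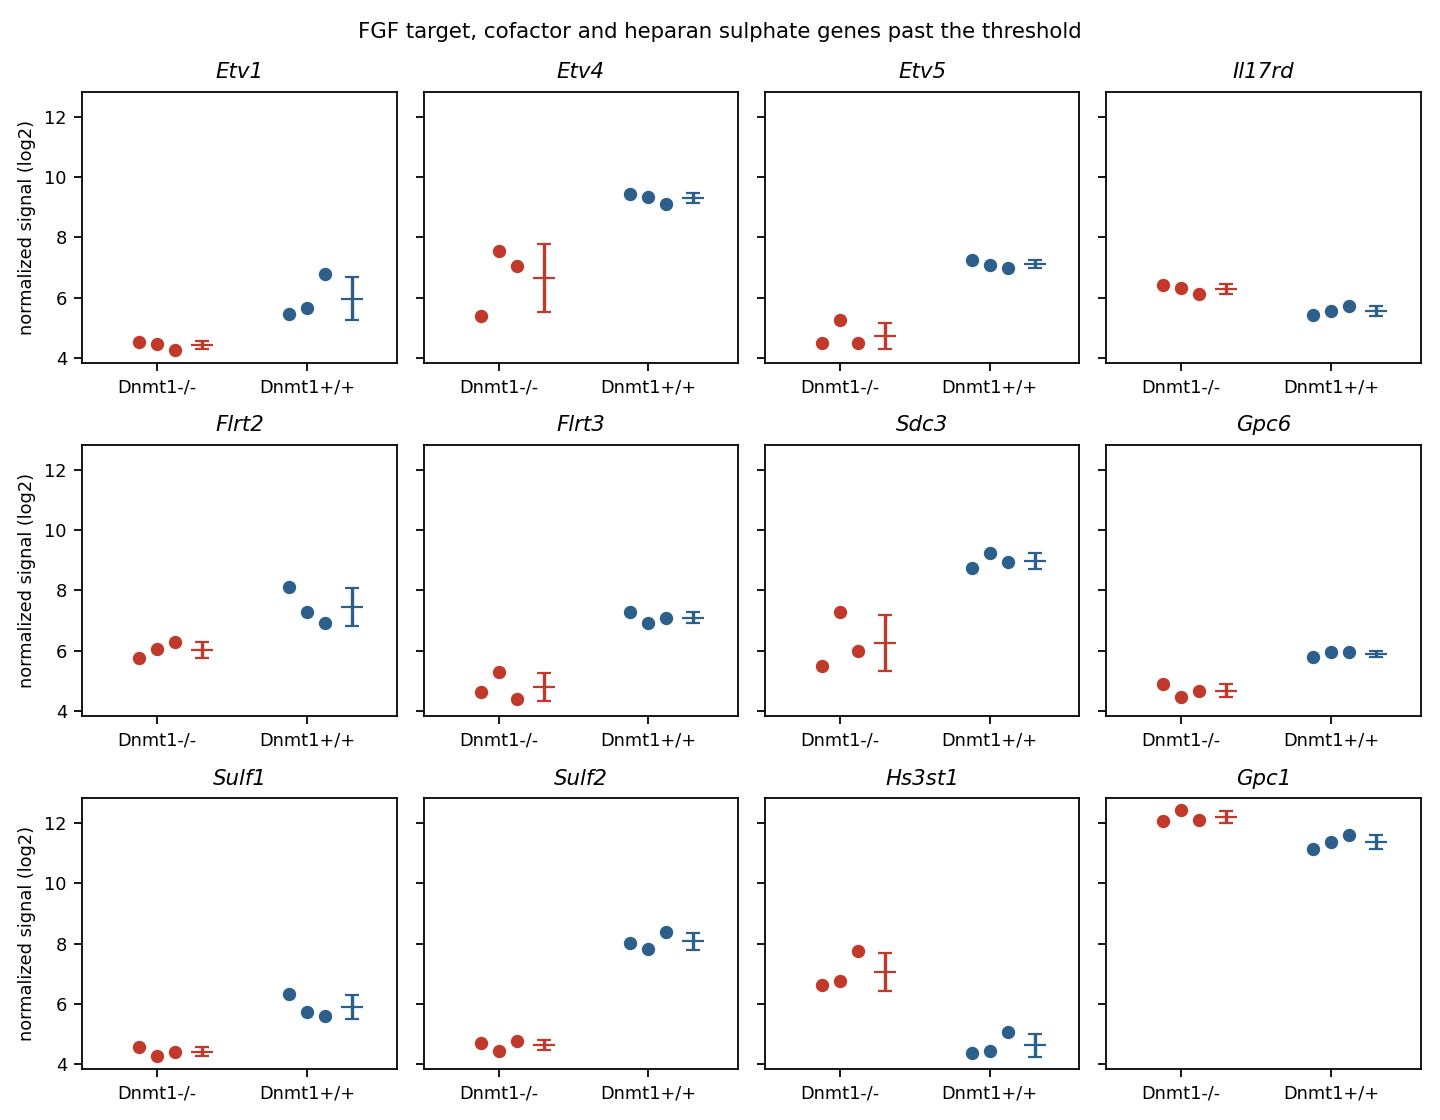
Normalized log2 signal on each array for 12 pathway genes that rose or fell, Dnmt1-/- at left and Dnmt1+/+ at right in each panel, with the mean and SD of 3 arrays beside the points. Etv1, Etv4, Etv5, Flrt2, Flrt3, Sdc3, Gpc6, Sulf1 and Sulf2 are lower in Dnmt1-/- MEFs, and Il17rd, Hs3st1 and Gpc1 are higher.

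Of the midkine and pleiotrophin receptors, 8 of 14 were tested and 1 fell, Sdc3, the syndecan known as a pleiotrophin receptor of neurites. It had raw signals of 154.4, 192.3 and 117.8 in Dnmt1-/- MEFs, against 568.2, 790.4 and 601.4 in Dnmt1+/+ MEFs, 6.62-fold lower (limma adjusted p = 0.004) with the groups apart. Its log2 difference of -2.73 was -1.71 in the scaling that made it smallest. The other 7 did not pass on their brightest probe, and the list's median was -0.50. Nrp1 and Itga6 each had 1 of 3 tested probes that was lower by limma.

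Of the HGF activation and MET partner genes, 4 of 13 were tested and 0 passed by limma, with 2 at an unadjusted p under 0.05. The plasminogen activators Plau and Plat, which can cleave the HGF precursor, differed by 0.31 (limma adjusted p = 0.59) and 0.55 (adjusted p = 0.35), the MET docking protein Gab1 by -0.66 (adjusted p = 0.076), and Cd44, a hyaluronan receptor that can act beside MET, by -0.69 (adjusted p = 0.059). The median was -0.18. In the RAS-ERK core 7 of 11 genes with a probe were tested and 1 rose, the kinase Araf, which had 2060.1, 1043.6 and 1039.2 in Dnmt1-/- MEFs, against 794.1, 882.1 and 846.3 in Dnmt1+/+ MEFs, 2.2-fold higher (limma adjusted p = 0.003) on 2 of its 4 tested probes. The other 6 did not pass and the median was -0.08. Of the growth factor response genes 8 of 9 with a probe were tested and 0 passed by limma, 1 at an unadjusted p under 0.05, with a median of 0.04.

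Of the 15 pathway genes that rose or fell, 9 did so in every fit that left out 1 array, 7 lower (Flrt3, Etv4, Etv5, Sdc3, Sulf1, Sulf2, Gpc6) and 2 higher (Hs3st1, Araf). The probes of Flrt3, Etv5, Sulf1, Sulf2, Gpc6 and Hs3st1 would not have entered the test without the arrays of their higher genotype. The fits that left out 1 array reused the probes filtered on all arrays, so this entry was not examined again. What share of all genes that rose or fell was kept in the same way is not given here. Of 22 pathway genes with more than 1 tested probe, 4 (Il17rd, Nrp1, Itga6, Araf) had probes that differed in call, and 0 had opposite calls.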

How the data were processed

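RNA from 3 Dnmt1-/- and 3 Dnmt1+/+ MEF samples was measured on Illumina BeadChips. For every array the authors deposited raw bead intensities, unlogged, with detection p-values, and in a second table processed intensity values. These were made, per the labels and the methods, with lumi (version not given in the sources used here) by background adjustment, variance stabilization and robust spline normalization. Array medians of these linear values were 103.4 to 104.2, so that either the transformation was undone or the steps ran in another order. Columns of authors' comparisons were not used.

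The raw intensities were background corrected and normalized in R 4.3.3 by the neqc function (limma 3.58.1, normexp background, its control mean and SD estimated through the detection p-values, offset 16, quantile normalization, log2). A probe was called above background at a detection p under 0.01, and the 15795 probes above background on at least 3 of 6 arrays were fitted with lmFit and eBayes, two-sided, with Benjamini-Hochberg adjustment over all of them and a threshold of 0.05. Of these, 1339 probes were higher and 1214 lower in Dnmt1-/- MEFs. Symbols came from the platform annotation, 34885 probes having 1 symbol, 18 several and 10378 none, and 34807 matched the RefSeq gene table. For each gene the brightest tested probe stood for it. The samples were treated as unpaired in the main fit. Deviations of same-numbered samples correlated at -0.229, 0.335 and -0.14. With 3 samples per group, this cannot settle whether replicate numbers pair them. The steps were tested on simulated data.

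The 10 genes and the lists were chosen with earlier results of these data known. Named were all 10 genes with every probe, Dnmt1, up to 3 genes per pathway list and direction with the largest differences among those that passed, every tested gene of lists with 5 or fewer, and markers as needed. Genes whose probes differed in call, neighbouring genes, and Dusp6, Dusp4 and Spred1 were named after their values were seen. Alternatives were no background correction, median scaling, cyclic loess, the processed values, 3 other filters, the mean of a gene's tested probes, leaving out each array and the replicate number as a block. After the data were seen, median scaling over all probes and a fit without Dnmt1-/- replicates 2 and 3 were added. The number of arrays limits the precision.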

Additional observations from a re-analysis of the deposited data

How the results depend on the processing

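Over all settings the ligand and receptor medians and the Dnmt1 difference stayed below 0. Of 127 differences of single probes 112 moved by less than 1 SD between replicates and 15 by more. The 112 include those under the 3 other filters and the replicate block, which could not move from the main fit. The ligand median of -2.99 was -2.55 with the authors' processed values, -0.04 with no filter, which brings in the ligands at background, and -1.06 over probes above background on all 6 arrays, which leaves Ptn and Fgf7. The receptor median of -0.80 was -0.43 with no background correction, -0.49 with the processed values and -1.11 with median scaling over all probes, a setting that shifted the median of all genes to -0.366 and left Fgf7 at 0.46. Leaving out each array in turn gave ligand medians of -3.21 to -2.70 and receptor medians of -0.96 to -0.66. Probes higher in Dnmt1-/- MEFs (1339) numbered 719 over probes above background on all arrays, 445 with median scaling over all probes, and 714 (without Dnmt1+/+ replicate 2) to 1323 when 1 array was left out. Probes lower (1214) numbered 663, 656 and 453 (without Dnmt1+/+ replicate 2) to 1170 in the same settings. Genes higher (838) numbered 554 with no filter, 476 over probes on all arrays, 286 with median scaling over all probes and 458 to 820 with 1 array left out, and genes lower (682) numbered 399, 397 and 281 to 661 in the last 3 of these settings. With the replicate block 945 probes were higher and 691 lower, and 609 genes higher and 399 lower, and the number of pathway genes was 3 higher and 8 lower. Pathway genes higher (4) numbered 2 without Dnmt1-/- replicates 2 and 3, 1 with median scaling over all probes and 2 to 4 with 1 array left out, and pathway genes lower (11) numbered 6 with no filter, 5 over probes on all arrays and 8 to 13 with 1 array left out. Dnmt1 differed by -2.42 to -1.86 with 1 array left out. Among named pathway genes, Il17rd did not pass with no background correction, with the processed values or with median scaling over all probes, Etv1 with no background correction or median scaling, Gpc1 with either median scaling, Glce with no background correction, cyclic loess or median scaling over all probes, and Araf with median scaling over all probes. Apart from the filters, which change the probes tested, the cause of these changes was not tested. Signals near background, as for Fgf10 and Fgfr1, limit what could be seen.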

Other observations

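The genes next to the 10 on their chromosomes were looked at after the values were seen, taking the 2 nearest protein-coding genes on each side in the RefSeq order. Of 40 such neighbours 33 had a probe and 19 were tested, of which 1 rose and 2 fell in Dnmt1-/- MEFs. Over all 8716 genes tested 9.61% rose and 7.82% fell, and the neighbours were not compared with these shares by a test. Tacc1, a neighbour of Fgfr1, was 3.9-fold higher (limma adjusted p = 0.0095, at most 0.037 with 1 array left out), with raw signals of 879.0, 207.6 and 226.3 in Dnmt1-/- MEFs and 170.9, 172.9 and 156.7 in Dnmt1+/+ MEFs, and it did not pass with median scaling over all probes. Mtpn, a neighbour of Ptn, was 1.55-fold lower (limma adjusted p = 0.048, and 0.16 without Dnmt1+/+ replicate 2), and Dtwd1, a neighbour of Fgf7, was 1.93-fold lower (limma adjusted p = 0.042, and 0.13 without Dnmt1+/+ replicate 2) while Fgf7 was higher. Neither passed in 5 of the 6 fits that left out 1 array, nor with cyclic loess. Beside Mdk, Ambra1 differed by -0.29 (limma adjusted p = 0.36) and Dgkz by -0.55 on its brightest probe (limma adjusted p = 0.074), while 1 of the 3 tested Dgkz probes was lower by limma, and Chrm4 and Creb3l1 were not tested. Nudt6, which lies beside Fgf2, differed by 0.59 (limma adjusted p = 0.10). Beside Met, Cav2, Cav1 and St7 differed by 0.13, 0.05 and 0.12.

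The platform annotation pairs the Mdk probes ILMN_3158499 and ILMN_3079236 with the same transcript, yet ILMN_3158499 was above background on 3 Dnmt1+/+ arrays and 1 Dnmt1-/- array while ILMN_3079236 was above background on 0 arrays. The Mdk probes ILMN_3158499 and ILMN_1254450 gave differences of -5.06 and -3.75, and -4.40 as their mean.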
